A study of Mus musculus with 20 samples.

Results

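Epididymal fat taken after 4 days of high-fat feeding was compared with epididymal fat taken after 2 days. The comparison used the 4 libraries of each day, 8 of the 20 in the series. All mice were male C57BL6/J. Both groups ate the high-fat diet and differ, by their labels, only in its length. The rest of the series is 4 libraries from mice kept on chow (day 0) and 4 each from days 6 and 14 of the diet. They entered the estimate of the spread between replicates and serve as reference levels. RNA was extracted from whole fat tissue, so every value is a mix of adipocytes and all other cells in it. The age of the mice and the composition of the diet are not given in the sources used here. The series calls its samples biological replicates.

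Visceral fat takes up surplus lipid first by enlarging the adipocytes it has and also by division of the cells around them, among them adipocyte progenitors, endothelial cells and macrophages. A cell that enters division first transcribes the genes for DNA replication, under E2F transcription factors, and later the genes for mitosis, whose promoters are known for the CHR element (cell cycle genes homology region, TTTGAA) and for the CCAAT box bound by NF-Y. Growing fat also remodels its matrix, in which collagen VI is a well known component around adipocytes.

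Libraries held between 1916829 (day 2 replicate 1) and 26798901 gene counts on day 2 and between 4578703 and 16274913 on day 4. Values are given as CPM, the counts of a gene scaled to a common library size by TMM (trimmed mean of M values). Day 4 replicate 1 stood apart from its group. Across genes, its log2 CPM correlated at 0.961 to 0.972 with the other day 4 libraries, at 0.961 to 0.989 with the day 2 libraries and at 0.982 to 0.987 with day 6 replicates 1 to 3. Day 6 replicate 4 correlated at 0.982 to 0.986 with day 4 replicates 2 to 4 and at 0.97 to 0.981 with its own group. Each of these 2 libraries was thus closer to libraries labelled with the other day than to those of its own. Whether their labels were exchanged was not tested, and an exchange would change which libraries stand behind every day 4 and day 6 mean. Labels were kept as deposited, and list counts without day 4 replicate 1 are given beside those with it.

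Most of the genes that passed the threshold given below were higher on day 4 than on day 2. Genes of DNA replication, chromosome condensation, the spindle and cytokinesis rose in day 4 replicates 2, 3 and 4, together with collagen VI, basement membrane collagens, smooth muscle actin and the monocyte attractant Ccl2. The genes called lower were fewer and included F3 (tissue factor), Cirbp (a cold-inducible RNA-binding protein) and the splicing kinases Clk1 and Clk4. Among 15254 genes tested, 327 (2.14%) were called higher and 39 (0.256%) lower on day 4, at a Benjamini-Hochberg adjusted p under 0.05 in edgeR's quasi-likelihood test, from which each edgeR adjusted p below comes. Together they were 2.4% of the genes. Of these calls 89.3% were higher, beside 62.1% of the calls made without day 4 replicate 1. Over all genes tested 48.9% had a positive log2 change. The median log2 change was 1.39 over the genes called higher and -0.883 over those called lower, beside -0.00725 over all genes tested. Each called gene had an adjusted p between 0.0412 and 0.05. The total ranged from 0 to 2240 when a single library of the 2 days was left out.

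Without day 4 replicate 1 the edgeR quasi-likelihood test called 1392 genes higher and 848 lower of 15408 tested, and all 366 of the original calls were among them. With both day 4 replicate 1 and day 6 replicate 4 left out it called 1541 higher and 979 lower, again with all 366. Leaving out instead day 2 replicate 1, 2 or 3, or day 4 replicate 2, 3 or 4, left 0 genes called. The smallest Benjamini-Hochberg adjusted p in those edgeR fits lay between 0.0796 and 0.166, and between 2289 and 3201 genes had an unadjusted p under 0.05. DESeq2 on all libraries called 651 higher and 261 lower of 15254, and limma-voom called 0. List counts from these fits, given below, are to be read beside these totals.

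**Figure D1:**
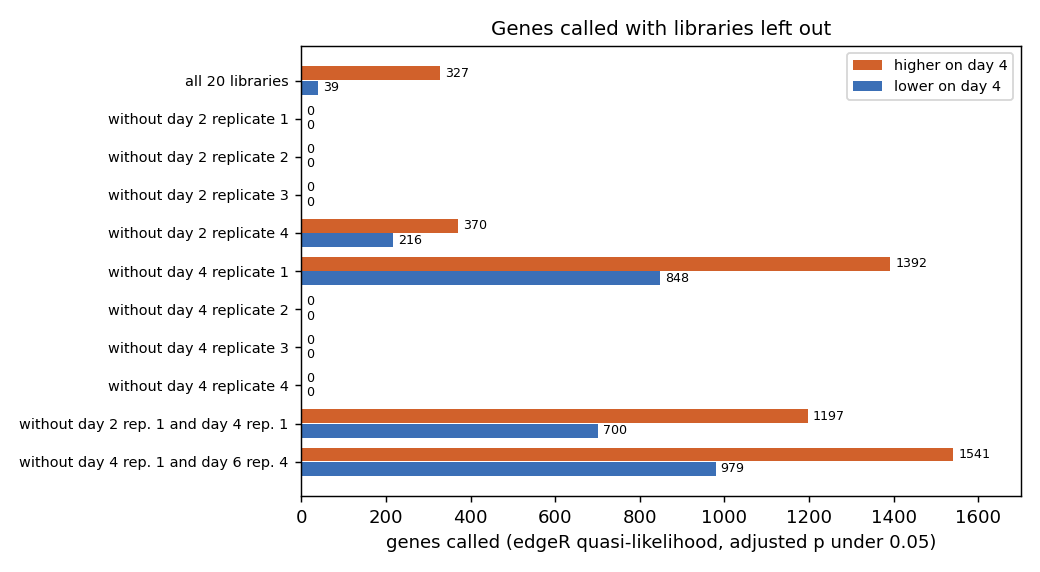
Number of genes called higher (orange) and lower (blue) on day 4 than on day 2 in edgeR fits with all 20 libraries or with the named libraries left out; bars start at 0. The full fit gave 327 and 39, the fit without day 4 replicate 1 gave 1392 and 848, and 6 of the 8 fits that left out a single library gave 0.

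**Figure D2:**
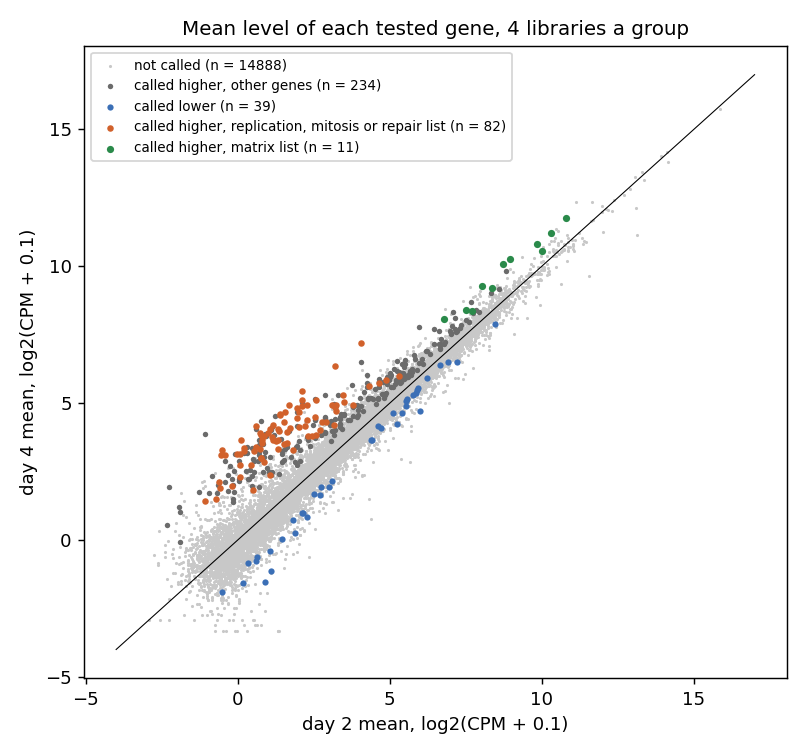
Mean CPM of each tested gene on day 2 (x axis) and day 4 (y axis), both as log2(CPM + 0.1), over 4 libraries each; the line marks equal levels. The 82 called genes of the replication, mitosis and repair lists (orange) lie above the line mostly at low day 2 levels, the 11 called matrix genes (green) at high ones, and the 39 genes called lower (blue) lie below it, 17 of them by a fold over 2.

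Many of the genes that switched on are known from cell division. A gene counted as switched on if it was called higher, had a day 2 mean under 1 CPM and reached 1 CPM in at least 3 of the 4 day 4 libraries. There were 37 such genes, and 13 of them belong to the lists for DNA replication, mitosis and DNA repair. The count was 100 without day 4 replicate 1.

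Melk, a kinase of dividing cells, measured 0.539, 0.509, 1.02 and 0.234 CPM in day 2 replicates 1 to 4 and 1.53, 12.8, 8.43 and 11.2 CPM in day 4 replicates 1 to 4. The groups did not overlap, but day 4 replicate 1 lay much nearer to day 2 than to its own group. The log2 change was 3.70 ± 0.77 (SE; edgeR adjusted p = 0.0412, and 0.00172 without day 4 replicate 1). Kif18b, a spindle motor, measured 0.539, 0.611, 1.1 and 0.117 CPM on day 2 and 1.08, 14.7, 10.4 and 12.4 CPM on day 4. Day 4 replicate 1 lay within the day 2 range for this gene, and the others lay far above it. Bub1, a kinase of the spindle checkpoint, measured 0, 0.357, 1.33 and 0.935 CPM on day 2 and 1.08, 12.6, 9.1 and 11.1 CPM on day 4, again with day 4 replicate 1 inside the day 2 range. The rest of the switched-on set held further genes known from division: Cenph and Cenpi of the kinetochore, Esco2 and Cdca5 of sister chromatid cohesion, Ticrr of replication start and Chek1 of the replication checkpoint.

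Rnase2a, a secreted ribonuclease of the eosinophil-associated family, had the highest log2 change of the switched-on genes, 5.26 ± 1.25 (SE; edgeR adjusted p = 0.0421). It measured 0, 0.102, 0.227 and 1.17 CPM on day 2 and 0.254, 31.3, 18 and 8.63 CPM on day 4. Only day 4 replicates 2 to 4 were above the day 2 range. Its family holds near-identical copies, so the share of reads that belongs to Rnase2a is uncertain. The same holds for Kifc5b, a near copy of Kifc1. Lrp8 (the apolipoprotein E receptor 2), Etv4 (an ETS transcription factor) and Slc22a2 (an organic cation transporter), named after their values were seen, switched on with log2 changes of 2.22, 2.58 and 2.14.

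A smaller set of 7 genes switched off by the reverse rule, and 68 did so without day 4 replicate 1. Phf24 fell from 2.16, 4.13, 2.24 and 1.99 CPM to 1.59, 0.841, 0.666 and 0.588 CPM, and Faim2, a membrane inhibitor of Fas-induced death, from 1.08, 1.48, 1.86 and 1.4 CPM to 0.699, 0.21, 0.444 and 0.85 CPM. All day 4 libraries lay below all day 2 libraries for both. The other 5 carry clone or pseudogene names: 4732463B04Rik, E330013P04Rik, Cd63-ps, 4930481B07Rik and 9230116N13Rik.

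The list for mitosis and cytokinesis had the highest median log2 change of the lists. Of 56 genes measured in this list, 52 were called higher and 0 lower, beside 2.14% called higher over all genes. Its median log2 change was 2.85, or 3.24 without day 4 replicate 1, when 55 members were called higher and 1 lower. The mean log2 level of the list, relative to its day 2 mean, was 0.21, -0.33, 0.20 and -0.08 in day 2 replicates 1 to 4. On day 4 it was 0.20, 2.94, 2.68 and 2.68. Day 4 replicates 2 to 4 were high together and replicate 1 lay inside the day 2 range.

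Mki67, the gene of the proliferation antigen Ki-67, measured 20.5, 9.63, 20.4 and 15.1 CPM on day 2 (16.4 ± 5.17, SD, n = 4). Day 4 gave 21.4, 208, 175 and 175 CPM (145 ± 83.7, SD, n = 4). The highest day 2 library was just below day 4 replicate 1. The log2 change was 3.18 ± 0.69 (SE; edgeR adjusted p = 0.0412), and 3.56 without day 4 replicate 1 (adjusted p = 0.0017). Mki67 was called in 2 of the 8 edgeR fits that leave out a single library.

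Drivers of entry into mitosis rose together. Cdk1, the mitotic kinase, measured 3.78, 1.58, 3.37 and 2.57 CPM on day 2 and 3.37, 33.6, 30.4 and 34.5 CPM on day 4. Ccna2, the cyclin A2 that partners it, measured 7.01, 2.5, 3.64 and 3.74 CPM on day 2 and 4.83, 53.4, 42 and 38.8 CPM on day 4. For both genes day 4 replicate 1 lay within the day 2 range and the other day 4 libraries above it. Foxm1, a transcription factor of mitotic genes, rose by a log2 change of 2.89 ± 0.63 (SE). The log2 changes of Ccnb1, Ccnb2 and Plk1 were 2.96, 3.40 and 3.13.

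Chromosome and spindle genes followed the same pattern. Top2a, the topoisomerase that untangles sister chromatids, measured 11.9, 4.84, 11.6 and 8.3 CPM on day 2 and 11.1, 127, 88.1 and 97.9 CPM on day 4. Nuf2, of the kinetochore, measured 1.08, 0.56, 1.25 and 1.29 CPM on day 2 and 1.33, 14.5, 13.3 and 11.9 CPM on day 4. For Top2a day 4 replicate 1 was inside the day 2 range and for Nuf2 just above it. Kif11, the motor that separates spindle poles, rose by 3.08 ± 0.69 and Aspm, of the spindle poles, by 3.50 ± 0.74 on the log2 scale (SE). Condensin genes rose less in part, with log2 changes of 1.00 for Smc4 and 1.09 for Ncapd2 and 3.22 for Ncapg.

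Genes of the last step of division were also higher. Racgap1, of the central spindle, measured 6.47, 4.43, 6.29 and 6.08 CPM on day 2 and 7.57, 50, 38.8 and 40.1 CPM on day 4, without overlap. Aurkb, the kinase of the chromosomal passenger complex, measured 1.62, 1.83, 2.39 and 1.75 CPM on day 2 and 2.99, 20.2, 21.3 and 15.8 CPM on day 4, also without overlap. Prc1, which bundles the central spindle, rose by a log2 change of 3.42 ± 0.74 (SE).

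The remaining 4 members of the mitosis list were not called. Cdc25c, a phosphatase that activates Cdk1, had a log2 change of 3.74 (edgeR adjusted p = 0.0512), and Kif15 and Spc24 had 2.14 and 2.26. Pttg1, the securin, was the 1 member with a negative value. It measured 24.8, 24.6, 23.2 and 19.3 CPM on day 2 and 21.6, 17.4, 18 and 18.1 CPM on day 4, a log2 change of -0.27 (edgeR adjusted p = 0.157, and 0.0476 without day 4 replicate 1).

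Because these genes moved together, their promoters were searched for the letters of the CHR element (TTTGAA) and the CCAAT box (CCAAT) on both strands, in the 250 bases before each RefSeq start of the mouse build GRCm38.p6. Among the 52 called mitosis genes 45 had a promoter in the table, and 17 of these (37.8%) held TTTGAA and 33 (73.3%) held CCAAT. Among all 11162 tested genes with a promoter the shares were 13.1% and 39.9%. Genes called lower gave 6.9% and 51.7% of 29 genes. Genes called higher outside the replication, mitosis and repair lists gave 18.4% and 48.6% of 185, so CCAAT was not particular to the mitosis genes. The called replication genes gave 14.3% and 57.1% of 21 genes, and of 10 called matrix genes 1 held TTTGAA and 4 held CCAAT. The E2F letters TTTNNCGC stood in 5 of the 45 mitosis genes, 4 of the 21 replication genes and 7.88% of all. In the last 100 bases before the start, TTTGAA stood in 24.4% of the mitosis genes against 4.05% of all, and CCAAT in 64.4% against 25.5%. A match of letters is a description and does not show that a factor binds there.

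The 4 promoters below belong to the called mitosis genes with the smallest p among those eligible that hold both motifs in the last 100 bases before the start. Promoters on a single chromosome were left out of this choice, so called mitosis genes there were not eligible. For a gene with several matching promoters the first listed was taken. Each is written 5′ to 3′ on the strand of its gene and ends at the base before the start, with TTTGAA and CCAAT, or their reverse complements, in capitals. They lie at chr7:80294376-80294475 on the plus strand for Prc1, chr11:99024190-99024289 on the minus strand for Top2a, chr19:37376282-37376381 on the plus strand for Kif11 and chr2:129297213-129297312 on the minus strand for Ckap2l (GRCm38.p6).
Prc1: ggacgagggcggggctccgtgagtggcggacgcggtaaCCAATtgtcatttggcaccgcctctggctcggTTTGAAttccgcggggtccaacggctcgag
Top2a: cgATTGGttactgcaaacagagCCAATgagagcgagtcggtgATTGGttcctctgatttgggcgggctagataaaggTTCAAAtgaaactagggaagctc
Kif11: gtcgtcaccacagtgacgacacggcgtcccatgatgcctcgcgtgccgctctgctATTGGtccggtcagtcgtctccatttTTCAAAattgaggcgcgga
Ckap2l: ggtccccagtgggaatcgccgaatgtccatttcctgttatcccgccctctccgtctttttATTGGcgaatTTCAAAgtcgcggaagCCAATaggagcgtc

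In all 4 the CHR letters began between 30 and 19 bases before the start. Top2a held 3 CCAAT boxes, Ckap2l 2 and the others 1. Ckap2l, a spindle protein, measured 3.24, 1.02, 2.16 and 1.52 CPM on day 2 and 2.54, 24.4, 21.8 and 17.9 CPM on day 4.

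The median of the DNA replication list was lower. Of 45 members 24 were called higher and 0 lower, beside 2.14% and 0.256% of all genes. The median log2 change of the 45 was 1.14. Without day 4 replicate 1, 40 were called higher (median 1.39), beside 1392 of 15408 genes. All 45 fitted changes were at or above 0. Of these members, 10 had every day 4 library above every day 2 library, a pattern shared by 4.07% of all genes tested.

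Mcm3, a subunit of the replicative helicase, measured 11.9, 9.88, 12.2 and 10.8 CPM on day 2 and 13.4, 42.2, 36.6 and 40.5 CPM on day 4. The day 4 libraries were all above day 2, replicate 1 by little. Its log2 change was 1.56 ± 0.31 (SE; edgeR adjusted p = 0.0412, and 0.00119 without day 4 replicate 1). Mcm2, Mcm4 and Mcm5 were called too (log2 changes of 1.51, 1.10 and 1.73), while Mcm6 (1.14, adjusted p = 0.0508) and Mcm7 (0.33) were not in the same edgeR test. Pcna, the sliding clamp of the polymerases, was already present on day 2 at 45.9, 32.8, 36.6 and 42.9 CPM and reached 46.2, 71.2, 66.8 and 69.4 CPM. Its log2 change of 0.70 ± 0.14 (SE) was the smallest among the called members of this list.

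Nucleotide supply genes were called as well. Rrm2, the regulated subunit of ribonucleotide reductase, measured 1.62, 2.14, 2.92 and 3.39 CPM on day 2 and 3.12, 34.2, 26 and 32.1 CPM on day 4. Tk1, thymidine kinase, measured 8.09, 3.92, 5.12 and 5.61 CPM on day 2 and 6.8, 31.3, 23.3 and 29.1 CPM on day 4. Both genes had day 4 replicate 1 within the day 2 range. Tyms, thymidylate synthase, rose by a log2 change of 1.56 ± 0.34 (SE). Rrm2 had a log2 change of 3.14 and Rrm1, the other reductase subunit, 1.26.

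Among the regulators of this phase, E2f1 measured 6.47, 7.08, 6.63 and 6.43 CPM on day 2 and 9.16, 24.4, 21.3 and 24.4 CPM on day 4. All day 4 libraries were above day 2, replicate 1 included. E2f8, a repressor of the same family, measured 0, 1.12, 1.21 and 1.17 CPM on day 2 and 1.21, 12, 10.2 and 11.2 CPM on day 4. Tfdp1, the partner of E2F proteins, rose by a log2 change of 0.55 ± 0.11 (SE). Uhrf1 and Dnmt1, which copy DNA methylation to the new strand, rose by log2 changes of 2.63 ± 0.55 and 1.08 ± 0.22 (SE).

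In the list for homologous recombination and Fanconi repair, 6 of 16 members were called higher and 0 lower (median log2 change 1.89). The shares over all genes were 2.14% and 0.256%. Without day 4 replicate 1, 14 members were called higher, beside 1392 of 15408 genes. Brca1 measured 1.08, 0.968, 1.67 and 1.64 CPM on day 2 and 2.1, 12, 10.4 and 12.8 CPM on day 4, without overlap. Its partner Bard1 had a log2 change of 2.14. Rad54b, a strand exchange motor, measured 0, 0.204, 0.606 and 0.701 CPM on day 2 and 0.763, 3.78, 2.88 and 2.88 CPM on day 4.

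Of the genes that start or restrain the cycle, a smaller part was called with all libraries than of the mitosis and replication lists. Over all genes 2.14% were called higher and 0.256% lower. Of 8 genes for G1 cyclins and growth entry, 1 was called higher, Ccnd2 (cyclin D2), at 221, 194, 274 and 234 CPM on day 2 and 302, 345, 360 and 333 CPM on day 4. Here day 4 replicate 1 lay above every day 2 library. Ccnd1 (cyclin D1) measured 57.2, 17.8, 22.9 and 62.5 CPM on day 2 and 50.6, 104, 122 and 126 CPM on day 4. The groups overlapped and the gene was not called (log2 change 1.40, edgeR adjusted p = 0.11, and 0.0362 without day 4 replicate 1). Of 18 cell cycle inhibitors and p53 targets 2 were called higher, Ccng1 (0.57 ± 0.14, log2 change and SE) and Gadd45b (1.49 ± 0.38), with 10 positive and 8 negative log2 changes (median 0.02). Without day 4 replicate 1, 4 of the 8 G1 genes were called higher, and 6 of the 18 inhibitors higher and 2 lower. Over all genes that fit called 1392 higher and 848 lower of 15408. Cdkn1a, the inhibitor p21, had a log2 change of 1.21 (edgeR adjusted p = 0.186).

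Genes of nuclear structure outside the lists rose as well. Lmnb1, lamin B1, measured 7.01, 6.42, 8.64 and 6.9 CPM on day 2 and 9.54, 50, 46.8 and 49.1 CPM on day 4. Hmgb2, a chromatin protein, measured 10.2, 9.63, 10.1 and 8.65 CPM on day 2 and 9.66, 58.6, 44.6 and 44.3 CPM on day 4. Lmnb1 was higher in every day 4 library, and Hmgb2 in all but replicate 1. Of the 327 genes called higher, 82 belong to the replication, mitosis and repair lists, which hold 117 genes.

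**Figure D3:**
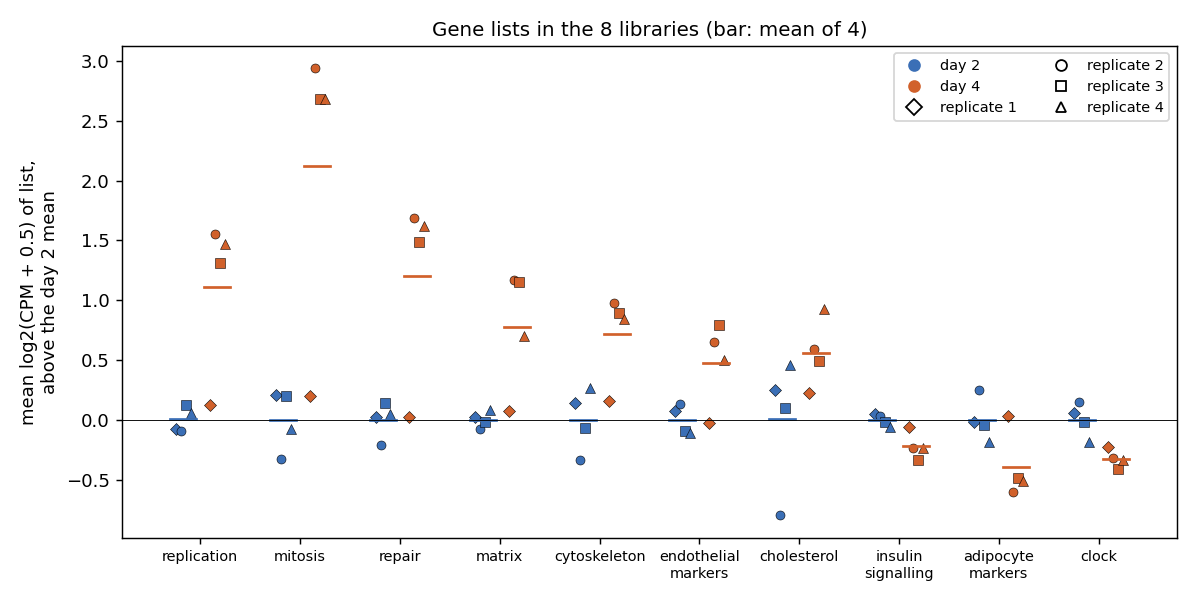
Mean log2(CPM + 0.5) of the members of 10 gene lists in each day 2 (blue) and day 4 (orange) library, relative to the day 2 mean of the list; symbols are replicates and bars are means of 4. Day 4 replicate 1 (orange diamond) lies at 0.20 for mitosis where the other day 4 libraries lie between 2.68 and 2.94, and near the day 2 libraries for replication, repair, matrix and cytoskeleton.

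Matrix genes formed the second group that rose. Of 44 collagens and matrix glycoproteins, 11 were called higher and 0 lower, beside 2.14% and 0.256% of all genes. The median log2 change of the list was 0.89. Without day 4 replicate 1, 29 were called higher and 1 lower (median 1.11), beside 1392 and 848 of 15408 genes. The 3 collagen VI chains of the list, 2 chains of collagen IV and 2 of collagen V were among the called genes, with Col18a1, Hspg2 (perlecan), Nid1 (nidogen) and Fbln2 (fibulin 2). Collagen IV, perlecan and nidogen are known as components of basement membranes.

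Col6a1 measured 426, 351, 351 and 546 CPM on day 2 (418 ± 92, SD, n = 4) and 539, 1358, 1326 and 1093 CPM on day 4 (1079 ± 379, SD, n = 4). Again replicate 1 of day 4 lay inside the day 2 range, and the others were far above it. The log2 change was 1.37 ± 0.26 (SE; edgeR adjusted p = 0.0412, and 1.59 without day 4 replicate 1, adjusted p = 0.00119). Col6a3, the chain from which endotrophin is cut, measured 261, 157, 261 and 369 CPM on day 2 and 258, 826, 724 and 679 CPM on day 4. Col6a2 rose by 1.31 ± 0.28, Col5a2 by 0.67 ± 0.15 and Fbln2 by 1.28 ± 0.29 on the log2 scale (SE). Col4a1 and Col4a2 had log2 changes of 0.98 and 0.89.

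Fibril-forming collagen I fell short of the threshold. Col1a1 measured 221, 221, 335 and 214 CPM on day 2 and 264, 901, 624 and 399 CPM on day 4. Day 4 replicate 1 lay inside the day 2 range, and the other day 4 libraries above it. Its log2 change was 1.14 ± 0.31 (SE; edgeR adjusted p = 0.0561, and 0.00533 without day 4 replicate 1). Postn, periostin, had 1.61 (adjusted p = 0.0511) and Sparc, a collagen-binding glycoprotein, 0.69 (adjusted p = 0.0637) in the same edgeR test. Sparc measured 3767, 3506, 2693 and 3036 CPM on day 2 and 3454, 6234, 5947 and 5368 CPM on day 4.

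Of 28 genes for collagen processing and remodelling 1 was called higher, Lox, the lysyl oxidase that cross-links collagen, beside 2.14% of all genes. Without day 4 replicate 1, 11 were called higher and 1 lower, beside 1392 and 848 of 15408 genes. Lox measured 52.9, 60.2, 56.4 and 52.5 CPM on day 2 and 62, 156, 108 and 112 CPM on day 4, without overlap. Loxl4, a relative outside that list, measured 2.16, 3.92, 4.17 and 4.79 CPM on day 2 and 5.21, 12.2, 13.3 and 12 CPM on day 4. Tram2, which is known for its part in collagen I synthesis at the ER, rose by a log2 change of 0.85 ± 0.17 (SE). Pdia3, a disulfide isomerase, was the 1 called gene of 24 for ER chaperones and the unfolded protein response (0.39 ± 0.10, log2 change and SE). Without day 4 replicate 1, 4 of the 24 were called higher and 1 lower, beside the same totals over all genes.

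Acta2, smooth muscle actin, measured 73.9, 65.7, 43 and 65.2 CPM on day 2 and 52.7, 288, 273 and 278 CPM on day 4. Replicate 1 was again inside the day 2 range, and the other 3 were close to each other. The log2 change was 1.86 ± 0.40 (SE; edgeR adjusted p = 0.0412). Acta2 was the 1 called gene of 15 smooth muscle and pericyte markers, whose summed level was 841.6 to 1004 CPM on day 2 and 777.9 to 1577 CPM on day 4. The defining markers Myh11 and Tagln had log2 changes of -0.16 and -0.09, and 8 of the 15 had negative changes (median -0.03). The fit that left out day 4 replicate 1 called 3 higher and 0 lower, beside 1392 and 848 of 15408 genes.

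All 24 genes of the cytoskeleton list had positive log2 changes (median 0.56), but 2 were called, Stmn1 (stathmin, a tubulin-binding protein of dividing cells) and Tubb6. Without day 4 replicate 1, 14 were called higher, beside 1392 of 15408 genes. Tubb6 measured 41.5, 28.4, 36.3 and 45.4 CPM on day 2 and 41.7, 119, 105 and 109 CPM on day 4. Itga5 (the fibronectin receptor chain), Flna (filamin A) and Fap (fibroblast activation protein), named after their values were seen, each rose by a log2 change of 1.01, with SEs of 0.26, 0.23 and 0.25. Serpinf1, a factor secreted by adipocytes and fibroblasts, rose by 1.03 ± 0.23 (log2 change and SE).

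Of 25 chemokine, cytokine and acute phase genes 1 was called higher, beside 2.14% of all genes. Without day 4 replicate 1, 4 were called, all higher, beside 1392 higher of 15408 genes. Ccl2, which attracts monocytes, measured 4.32, 2.09, 3.94 and 4.68 CPM on day 2 and 7.5, 41.6, 24.9 and 28.9 CPM on day 4. The groups did not overlap, and day 4 replicate 1 was the lowest of its group. Its log2 change was 2.83 ± 0.70 (SE; edgeR adjusted p = 0.0442, and 0.00669 without day 4 replicate 1). Its neighbour in function Ccl7 had a log2 change of 2.23 and an adjusted p of 0.0501 in the same edgeR test. Tnf and Il1b had log2 changes of 0.14 and 0.52.

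Of 28 macrophage markers 1 was called higher and 0 lower, and 23 had positive log2 changes (median 0.23). DESeq2 called 2 higher, and edgeR without day 4 replicate 1 called 3 higher, beside 1392 of all 15408 genes in that fit. Cd68, a lysosomal glycoprotein of macrophages, measured 18.9, 35.3, 38.6 and 31.3 CPM on day 2 and 50.7, 71.2, 67.5 and 38.6 CPM on day 4. Day 4 replicate 4 equalled the highest day 2 library at this precision, and replicate 1 was above all of day 2. Adgre1, the F4/80 antigen, measured 28.1, 41.3, 39 and 38.2 CPM on day 2 and 53.6, 52.3, 49.7 and 25.2 CPM on day 4 and was not called (log2 change 0.26, edgeR adjusted p = 0.479). The summed level of the list ran from 1374 to 2101 CPM on day 2 and from 1568 to 2864 CPM on day 4.

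Of the autophagy and lysosome lists 1 gene each was called, a share near the 2.14% called higher over all genes. Atg12, a ubiquitin-like protein of autophagosome formation, was the 1 of 26 (0.36 ± 0.09, log2 change and SE), at 45.9, 47.5, 47.8 and 52.3 CPM on day 2 and 59.6, 58.8, 69.9 and 60.8 CPM on day 4. All day 4 libraries, replicate 1 included, lay above day 2. The autophagy list held 13 positive and 13 negative changes (median 0). Without day 4 replicate 1, 3 of its members were called higher and 2 lower, beside 1392 and 848 of all 15408 genes in that fit. Of 29 lysosome genes 23 had positive log2 changes (median 0.24) and 1 was called, Atp6v1b2, a subunit of the proton pump (0.42 ± 0.10, log2 change and SE). Of the 29, 6 were called higher and 1 lower without day 4 replicate 1, beside the same totals. Trp53inp2, which acts in autophagosome formation, measured 1091, 934, 1110 and 1043 CPM on day 2 and 1021, 1700, 1910 and 1978 CPM on day 4. It was not called with all libraries (log2 change 0.66, edgeR adjusted p = 0.077) and passed without day 4 replicate 1 (adjusted p = 0.00555).

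Of the genes called lower, F3 alone belongs to one of the lists. It encodes tissue factor and also marks a subset of adipocyte progenitors. It measured 54.5, 97.2, 61.8 and 42.8 CPM on day 2 (64 ± 23.4, SD, n = 4) and 28.9, 25.9, 25.3 and 24.3 CPM on day 4 (26.1 ± 1.99, SD, n = 4). All 4 day 4 libraries were alike and below all of day 2, replicate 1 included. The log2 change was -1.31 ± 0.28 (SE; edgeR adjusted p = 0.0412, and 0.0101 without day 4 replicate 1). F3 was the 1 called gene of 17 progenitor markers, of which 13 had positive changes (median 0.40); Pdgfra and Pdgfrb, which define these cells, had -0.45 and 0.08. Among the progenitor markers 4 were called higher and 1 lower without day 4 replicate 1, beside 1392 and 848 of 15408 genes.

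Cirbp and the splicing kinases Clk1 and Clk4 were among the genes called lower. No list of RNA-binding or splicing genes was counted, so these are single genes. Cirbp measured 36.1, 53.5, 46.2 and 33 CPM on day 2 and 30.5, 23.1, 22 and 22.9 CPM on day 4, without overlap. Clk1, a kinase of SR splicing factors, measured 148, 193, 146 and 112 CPM on day 2 and 115, 81.1, 90.8 and 75.8 CPM on day 4, so that replicate 1 lay inside the day 2 range. Its relative Clk4 fell by 0.51 and Rsrp1, an arginine and serine rich protein, by 0.59 on the log2 scale. All 4 were in the chow libraries at least at their day 2 level by mean, Cirbp at 63.2 CPM and Clk1 at 169 CPM.

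Rasl11a, a small GTPase, measured 4.86, 7.9, 3.64 and 2.46 CPM on day 2 and 1.78, 1.26, 2.22 and 1.44 CPM on day 4. Fmo4, a flavin monooxygenase, measured 0.539, 1.32, 1.67 and 0.585 CPM on day 2 and 0.445, 0.21, 0.222 and 0.0654 CPM on day 4. Neither gene overlapped between the groups. Further falls were those of Frs3, an adaptor of growth factor receptors (-0.97), Meis1, a homeobox factor (-0.78), Appl2, an endosomal adaptor (-0.65), Zc3h6 (-1.13), Acrbp (-1.07), Zfp263 (-0.42) and Flywch1 (-0.42), all as log2 changes.

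Of 10 adipokines 0 were called by edgeR with all libraries. There 3 higher and 4 lower had an unadjusted p under 0.05, beside 12.9% and 9.47% of all genes. DESeq2 called 1 higher and 2 lower, beside 651 and 261 of 15254 genes. Without day 4 replicate 1 edgeR called 1 higher and 4 lower, beside 1392 and 848 of 15408 genes. Cfd, the complement factor adipsin that adipocytes secrete, measured 7199, 12860, 10070 and 5873 CPM on day 2 and 5764, 956, 1207 and 1188 CPM on day 4. All day 4 libraries were below day 2, replicate 1 by little and the others by far. The log2 change was -1.98 ± 0.60 (SE; edgeR adjusted p = 0.077), and -3.01 without day 4 replicate 1 (adjusted p = 0.0024). Lep, leptin, measured 1589, 1002, 1019 and 2118 CPM on day 2 and 2032, 2677, 2795 and 3075 CPM on day 4, and the groups overlapped at day 4 replicate 1. It was not called with or without that library (log2 change 0.89, edgeR adjusted p = 0.118 and 0.0537). Adipoq, adiponectin, measured 2071, 4114, 2352 and 1928 CPM on day 2 and 2947, 1253, 1776 and 1161 CPM on day 4, and passed only without replicate 1 (log2 change -0.91, adjusted p = 0.0469 in that edgeR fit).

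Other secreted products of fat cells showed the same split between day 4 replicate 1 and its group. Gpx3, the plasma glutathione peroxidase, measured 466, 1100, 763 and 609 CPM on day 2 and 461, 203, 192 and 240 CPM on day 4. Apoe, apolipoprotein E, measured 4224, 5352, 3373 and 3615 CPM on day 2 and 3676, 1833, 2132 and 2067 CPM on day 4. Their log2 changes of -1.42 and -0.77 had edgeR adjusted p-values of 0.0554 and 0.0583, and 0.00767 and 0.00248 without that library. Rbp4, the retinol carrier, had a positive log2 change of 0.70 (0.077, and 0.00927 without it).

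Of 16 adipocyte markers 0 were called by edgeR, 14 had negative changes (median -0.31) and 1 higher and 6 lower members had an unadjusted p under 0.05, beside 12.9% and 9.47% of all genes. DESeq2 called 2 of them lower, beside 261 of all 15254 genes, and limma-voom 0. Limma-voom with sample quality weights called 1 higher and 11 lower, beside 1975 and 1407 of 15254 genes. Leaving out day 4 replicate 1, edgeR called 4 lower (median -0.44), beside 848 of 15408 genes. Their summed level was 67760 to 88230 CPM on day 2 and 51610 to 57600 CPM in day 4 replicates 2 to 4, with 81150 CPM as the highest day 4 library. In bulk tissue fewer cells of a type and less RNA per cell cannot be told apart. Adipoq and Cfd, which define adipocytes, were present at 956 CPM or more in every library of both days.

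Of 27 genes for glucose uptake and insulin signalling, edgeR and DESeq2 called 0 with all libraries, and 22 had negative log2 changes (median -0.24). In edgeR 1 higher and 7 lower members had an unadjusted p under 0.05, beside 12.9% and 9.47% of all genes. With day 4 replicate 1 left out edgeR called 1 higher and 4 lower, beside 1392 and 848 of 15408 genes. Limma-voom with sample quality weights called 2 higher and 11 lower, beside 1975 and 1407 of 15254 genes. Slc2a4, the insulin-regulated transporter GLUT4, measured 252, 254, 241 and 199 CPM on day 2 and 256, 154, 182 and 179 CPM on day 4. Its groups overlapped, with day 4 replicate 1 the highest of all 8. Trarg1, a protein of GLUT4 vesicles, measured 758, 587, 667 and 782 CPM on day 2 and 707, 623, 607 and 728 CPM on day 4, a log2 change of -0.07 ± 0.12 (SE; edgeR adjusted p = 0.803). Irs1 and Irs2, the insulin receptor substrates, had log2 changes of -0.57 and -1.02.

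Of 25 cholesterol genes 24 had positive log2 changes (median 0.56). For these edgeR called 0, with 6 higher at an unadjusted p under 0.05, beside 12.9% of all genes. DESeq2 called 1, limma-voom 0, and edgeR without day 4 replicate 1 called 3 higher, beside 1392 of 15408 genes. Insig1, which retains the sterol sensor in the ER, measured 568, 128, 660 and 781 CPM on day 2 and 674, 779, 806 and 1285 CPM on day 4. Day 2 replicate 2 was far below its group for Insig1 and for Fasn, the fatty acid synthase, which measured 10670, 2332, 9905 and 11040 CPM on day 2 and 10740, 7499, 10180 and 11320 CPM on day 4. Fasn had a log2 change of 0.23, and -0.09 without day 2 replicate 2. Scd1, the stearoyl-CoA desaturase, had -0.11, and 0.08 without both day 2 replicate 1 and day 4 replicate 1.

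Most genes of 3 lists for the use of fat or fuel had small negative log2 changes. Of 20 lipolysis and lipid droplet genes 17 had negative changes (median -0.31), of 20 genes for branched-chain amino acid breakdown 20 had values at or below 0 (median -0.30), and of 68 nuclear oxidative phosphorylation genes 64 were negative (median -0.17). The edgeR test called 0 in these 3 lists, with 8, 7 and 9 lower members and 2, 0 and 0 higher ones at an unadjusted p under 0.05. Over all genes 9.47% were lower and 12.9% higher at that level. DESeq2 called 3, 2 and 1 members, beside 912 of all 15254 genes. Without day 4 replicate 1 edgeR called 6, 9 and 4 members, of which all but 1 were lower. Over all genes that fit called 848 lower and 1392 higher of 15408. Among genes of triglyceride synthesis and uptake 1 of 18 was called higher, Vldlr, the receptor for very low density lipoprotein, beside 2.14% of all genes. Without day 4 replicate 1 edgeR called 2 of the 18 higher and 3 lower. Vldlr measured 141, 107, 130 and 131 CPM on day 2 and 173, 203, 202 and 225 CPM on day 4, without overlap.

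Endothelial markers had higher summed levels in the day 4 libraries that also held high mitotic levels. Of 23, 22 had positive log2 changes (median 0.47). The edgeR test called 0, with 11 higher at an unadjusted p under 0.05, beside 12.9% of all genes. DESeq2 called 3, and edgeR without day 4 replicate 1 called 9, beside 1392 higher of 15408 genes. Summed over all 24 genes of the list, tested or not, the level was 1915 to 2141 CPM on day 2. It was 1993 CPM in the lowest day 4 library and 3084 to 3714 CPM in day 4 replicates 2 to 4. Cdh5, VE-cadherin, measured 246, 266, 253 and 226 CPM on day 2 and 257, 562, 648 and 481 CPM on day 4. Pecam1, the adhesion molecule CD31, had a log2 change of 0.69 (edgeR adjusted p = 0.132). The part of these shifts in the results for the cell cycle and matrix was not tested.

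Markers of lymphocytes, mesothelium and epididymis gave no call. The 22 T and NK cell markers had a median log2 change of -0.65 and the 13 B cell markers -0.66, or -0.92 and -1.67 without day 4 replicate 1. Summed over all 27 and 14 genes of these lists, tested or not, the levels were 23.2 to 45.6 and 443.6 to 1283 CPM on day 2. On day 4 they were 19.4 to 34.4 and 343.3 to 1141 CPM. The 16 mesothelial markers summed to 195.2 to 283.1 CPM on day 2 and 154.4 to 363.1 CPM on day 4 (median log2 change -0.27). The 19 genes of the epididymal epithelium list, of which 5 were tested, summed to 1.14 to 14.0 CPM on day 2 and 1.05 to 2.00 CPM on day 4. Of the 19 genes of that list 5 had no read on either day. In edgeR 5 T and NK cell markers, 0 B cell markers, 1 mesothelial marker and 0 epididymal genes had an unadjusted p under 0.05, all lower. The share over all genes was 9.47% lower. DESeq2 and limma-voom called 0 in these lists. With sample quality weights limma-voom called 3 T and NK cell markers and 2 mesothelial markers lower, beside 1407 of all 15254 genes. Without both day 2 replicate 1 and day 4 replicate 1, edgeR called 1 T and NK cell marker lower, beside 700 of 15427 genes. Their part in the results was not tested. The 15 mitochondrially encoded RNAs summed to 42070 to 65010 CPM on day 2 and 45380 to 66550 CPM on day 4.

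Of 18 clock genes 13 had negative and 5 positive log2 changes (median -0.47). With all libraries edgeR called 0, with 1 higher and 7 lower members at an unadjusted p under 0.05, beside 12.9% and 9.47% of all genes. DESeq2 called 1 lower, beside 261 of 15254 genes. Without day 4 replicate 1 edgeR called 1 higher and 2 lower, beside 1392 and 848 of 15408 genes. Of these members 3 had every day 4 library below every day 2 library, a pattern shared by 3.16% of all genes tested. Nr1d1, the repressor REV-ERB alpha, measured 197, 258, 163 and 180 CPM on day 2 and 132, 137, 120 and 96.8 CPM on day 4. The groups did not overlap, and day 4 replicate 1 lay with its group here. Fkbp5, a glucocorticoid target, measured 81.5, 137, 84.8 and 52.3 CPM on day 2 and 54.4, 50, 45 and 48.8 CPM on day 4. Its groups overlapped and it was not called (log2 change -0.85, edgeR adjusted p = 0.178). Of 9 glucocorticoid targets 0 were called, with 7 negative and 2 positive log2 changes (median -0.58). Hours of tissue collection are not given in the sources used here, and the part of collection time was not tested.

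Set beside the other days, day 4 had the highest mean for Mki67, but not for every gene of the mitosis list. Pttg1 had its lowest mean on day 4, at 18.8 CPM, beside 27.55 CPM in chow and 23 CPM on day 2. Mki67 had a mean of 9.79 CPM in chow, and of 16.4, 145, 49.1 and 18.7 CPM after 2, 4, 6 and 14 days of the diet. The day 6 libraries ran from 15.7 to 124 CPM, and the highest was replicate 4. Each of the 37 switched-on genes had its highest group mean on day 4. They were chosen for a high day 4 and a low day 2 level, so this is no separate evidence for a day 4 peak. Mki67, Col6a1, Ccl2 and F3 were themselves called between day 2 and day 4, so the same limit holds for them. Col6a1 had means of 390, 418, 1079, 803 and 695 CPM over the same 5 groups, so its day 6 and day 14 means lay between day 2 and day 4. Ccl2 had means of 3.54, 3.76, 25.7, 14.9 and 14.3 CPM. F3 had 52.1, 64, 26.1, 38.7 and 56.6 CPM, lowest on day 4. These means are given as levels, and the other days were not tested against day 4.

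**Figure D4:**
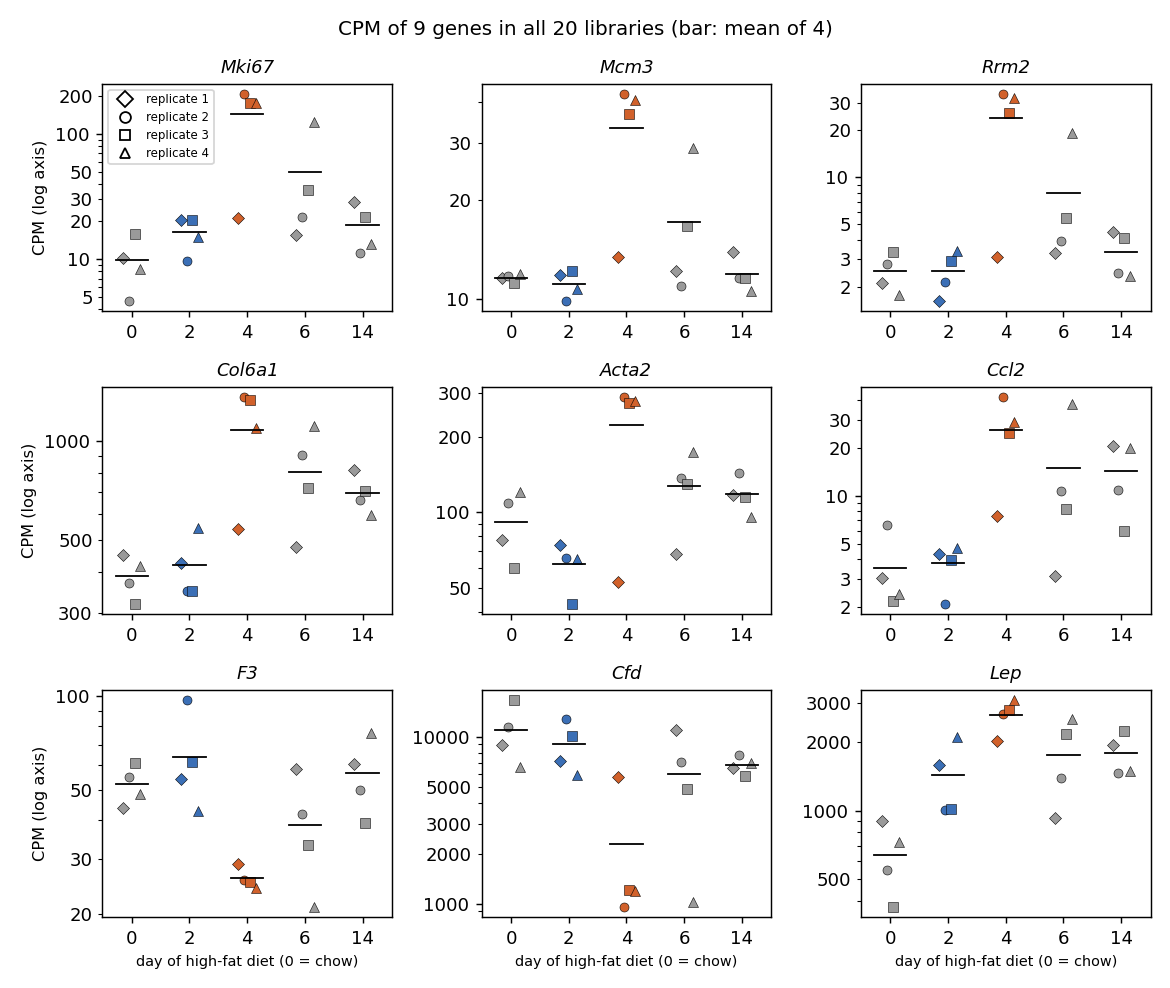
CPM of 9 genes in all 20 libraries by day of high-fat diet (day 0 is chow), on log axes; symbols are replicates, bars are means of 4, blue is day 2 and orange is day 4. Mki67 runs from 9.63 to 20.5 CPM on day 2 and from 175 to 208 CPM in day 4 replicates 2 to 4, with day 4 replicate 1 at 21.4 CPM, and F3 is low in all 4 day 4 libraries.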

How the data were processed

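Gene counts of the 20 libraries were used as deposited. Per the labels, RNA came from an RNeasy kit and libraries from the TruSeq RNA kit. CASAVA, STAR, featureCounts, R 3.0 and limma appear in the submitters' processing notes; genome build, annotation and strand setting are not given in the sources used here, so overlapping genes and near-identical copies are uncertain. Symbols were taken from a reference table (37607 of 39179 genes). Genes were filtered with filterByExpr (minimum count 10, minimum total 15), which left 15254 genes, and scaled by TMM. The main test was edgeR's quasi-likelihood test (edgeR 4.0.16, R 4.3.3) over all 20 libraries, 5 groups, day 4 minus day 2, with robust dispersion and Benjamini-Hochberg adjustment over all genes tested. Called means an adjusted p under 0.05. SE is the log2 change divided by the root of F. DESeq2 1.42.0, limma 3.58.1 (voom), other scalings, filters and covariates, and fits leaving out libraries were alternatives. The scripts were tested on simulated data.

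The rule for naming genes took the 8 largest rises and falls among called genes without overlap and the 8 smallest p in each direction. It added up to 4 members of each list, the switched genes and a set panel. Further genes, among them Cdk1, Top2a, Tk1 and Clk4, were named outside this rule, and only some of these are marked. Some genes the rule names are not reported here. The members and lists were chosen with earlier results of these data known. Depth ran from 1916829 to 38832429 counts per library, and p-values measure only the spread between these samples. List levels are means of log2(CPM + 0.5) over tested members, and summed levels cover every list gene in the data, tested or not. Promoters are RefSeq's, of GRCm38.p6. No coordinates of other genes were used.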

Additional observations from a re-analysis of the deposited data

Results flagged for a closer look

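In 27 of 258 groups of 4 libraries examined, 1 library lay farther from the others than Dixon's 95% critical value allows. Independent normal values would give about 1 in 20. The groups reuse the same libraries and hold genes that move together, so that rate is only a guide. On day 4 there were 21 such groups, and in 20 of them the library was replicate 1. It was the lowest for E2f8 (1.21 CPM), Cdk1 (3.37 CPM), Stmn1 (6.36 CPM), Lmnb1 (9.54 CPM), Loxl4 (5.21 CPM), Acta2 (52.7 CPM), Cd93 (142 CPM, an endothelial receptor), Flna (494 CPM), Mest (231 CPM, a marker of fat expansion) and Rbp4 (383 CPM). It was the highest for Cirbp (30.5 CPM), Appl2 (35.7 CPM), Pttg1 (21.6 CPM), Cfd (5764 CPM) and Apoe (3676 CPM). In list means relative to day 2 it was the lowest for replication (0.12), mitosis (0.20), repair (0.02), fat expansion markers (0.13) and the cytoskeleton (0.16). Day 4 replicate 4 was the lowest for Adgre1 (25.2 CPM). On day 2, replicate 1 was the lowest for E2f8 (0 CPM), replicate 2 the lowest for Fasn (2332 CPM) and the highest for Phf24 (4.13 CPM), replicate 3 the highest for Col1a1 (335 CPM), and replicate 4 the highest for Itgax (11.3 CPM, the CD11c antigen) and for the mean of ER chaperones (0.20).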

How the results depend on the processing

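Leaving out single libraries of the 2 groups moved the genes called from 0 to 2240, those higher from 0 to 1392, those lower from 0 to 848, those switched on from 0 to 100 and those switched off from 0 to 68. Members called moved from 0 to 40 (replication), 0 to 56 (mitosis), 0 to 14 (repair) and 0 to 30 (matrix). Without both day 2 replicate 1 and day 4 replicate 1, 1897 genes were called (1197 higher, 700 lower), 99 switched on, 43 off, with 37 replication, 13 repair and 27 matrix members. In alternatives chosen after seeing the data, leaving out day 6 replicate 4 gave 770 (623 and 147), 62 on, 13 off, 11 repair and 19 matrix members, and leaving out it and day 4 replicate 1 gave 2520 (1541 and 979), 108 on, 76 off, 40 replication, 14 repair and 32 matrix members.

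Counts of 0 for every total and list came with scaling by library size only (smallest adjusted p 0.0554, 3259 genes at unadjusted p under 0.05), no filter (0.0716, 3686), limma-voom (0.142, 2959), only the day 2 and day 4 libraries in edgeR (0.0942, 2837) and an adjusted p under 0.01. DESeq2 called 912 (651 and 261), 69 on, 21 off, 11 repair and 24 matrix members. Voom with sample quality weights called 3382 (1975 and 1407), 121 on, 76 off, with 41 replication, 13 repair and 32 matrix members. Library number as covariate gave 1261 (821 and 440), 88 on, 30 off, with 37 replication, 12 repair and 22 matrix members. DESeq2 size factors in edgeR gave 296 (255 and 41). The stricter filter gave 12 on, 1 off and 2 repair members. Requiring an absolute log2 change above 1 left 231 (214 and 17) and 4 matrix members. With level thresholds of 0.5 and 2 CPM, 10 and 86 genes switched on. The share of calls that were higher was 89.3% with all libraries, 71.4% with DESeq2, 86.1% with DESeq2 size factors, 58.4% with quality weights and 62.1% without day 4 replicate 1. The cause of these moves was not tested.

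With the replicate block 551 genes were called (426 and 125) and 12 switched off; same-numbered libraries correlated at -0.07, 0.04, 0.02 and 0.18 in their deviations, so the numbers were not taken as pairs. With libraries left out, the log2 change of Fasn ran from -0.09 (without day 2 replicate 2) to 0.37 and that of Scd1 from -0.26 to 0.08 (without both day 2 replicate 1 and day 4 replicate 1). The median log2 change of the mitosis list stayed between 2.10 and 3.31 and that of the matrix list between 0.72 and 1.13 in every fit run. Day 2 replicate 1, with 1916829 counts, limits genes near 1 CPM.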

Other observations

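Lyve1, a receptor of lymphatic endothelium and resident macrophages, measured 18.3, 27.1, 28.8 and 22.6 CPM on day 2 and 26.6, 71.9, 75 and 35.9 CPM on day 4. It was not called (log2 change 1.03, edgeR adjusted p = 0.118), and passed without day 4 replicate 1 (adjusted p = 0.0278). Trem2, a lipid receptor of macrophages, measured 6.47, 6.93, 7.5 and 6.31 CPM on day 2 and 15, 13, 10.4 and 8.37 CPM on day 4. Here the library labelled day 4 replicate 1 was the highest of its group and no library overlapped between days, with an edgeR adjusted p of 0.0511. Igfbp5, a binding protein of insulin-like growth factors, had a log2 change of 0.68 (0.0543 in the same edgeR test). Tmem97, a sterol-regulated membrane protein outside the cholesterol list, rose by a log2 change of 0.85 ± 0.17 (SE).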
